A study of Mus musculus with 42 samples.

Results

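Jdp2, Atf3, Batf, Batf2 and Batf3 encode small basic leucine zipper factors of the AP-1 family, and they were chosen by gene symbol from 21911 protein-coding genes in chromatin immunoprecipitation libraries of mouse bone marrow-derived macrophages (BMDMs). The 5 genes were picked as a family with earlier results of these libraries known, so every test below describes these libraries and is not independent support for a pattern. The study compared WT BMDMs with Nur77-KO BMDMs, which lack the nuclear receptor Nur77 (gene symbol Nr4a1), without LPS and after 1 h or 18 h of 100 ng/ml LPS, the bacterial lipopolysaccharide that activates macrophages through a Toll-like receptor. The whole-body deletion came from C57Bl6/J mice with a Cre recombinase driven by the CMV promoter, bred with mice whose Nur77 locus was loxP-flanked. The Nur77-KO mice used no longer expressed Cre, and the WT mice were littermates. Bone marrow cells of both genotypes were differentiated in L929-conditioned medium. Each of the 6 groups held 3 RNA polymerase II (Pol II) libraries and 3 libraries of acetylated histone H3 lysine 27 (H3K27ac), with 1 input library per group. Nothing in the labels says whether the 3 libraries of a group came from separate mice or cultures, so p-values measure only the spread between these libraries.

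AP-1 is a group of dimers of basic leucine zipper proteins, classically a Jun protein with a Fos protein, which bind the AP-1 site and the related cyclic AMP response element (CRE). JDP2 and ATF3 carry the zipper but no strong activation domain, can pair with Jun proteins or with themselves, and are mostly known as repressors, with ATF3 a feedback brake on cytokine genes in LPS-stimulated macrophages. BATF, BATF2 and BATF3 pair with Jun proteins and can bind composite elements with the interferon regulatory factors IRF4 or IRF8; BATF is known from T helper and B cells, BATF2 from interferon-stimulated macrophages and BATF3 from the development of cross-presenting dendritic cells. Pol II over a gene follows its transcription, and H3K27ac marks active promoters and enhancers.

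The genes lie in 3 places of the mouse genome (build mm10, GRCm38; gene records of GENCODE). Jdp2 (ENSMUSG00000034271) spans chr12:85599027-85639878 on the plus strand and is followed, after a gap of 46.79 kb, by Batf (ENSMUSG00000034266, chr12:85686669-85709087, plus strand), while Fos ends 121.8 kb before Jdp2. Batf3 (ENSMUSG00000026630, chr1:191097847-191108945, plus strand) and Atf3 (ENSMUSG00000026628, chr1:191170296-191218039, minus strand) are 61.35 kb apart. Batf2 (ENSMUSG00000039699) spans chr19:6140983-6172476 on the plus strand. For Atf3 and Batf2 the gene record starts well before the main coding transcript: the principal transcript of Atf3 covers chr1:191170296-191183340 and that of Batf2 chr19:6164439-6172476, and the record start of Batf2 lies at the neighbouring gene Arl2. Values for these principal transcripts are therefore given beside those of the records, a choice made after seeing the data.

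Promoter sequences, from 250 bases before to 50 bases after a transcript start, were available from RefSeq (GRCm38.p6) for 4 of the 5 genes in 6 entries. They were searched on both strands for the AP-1 site (TGACTCA or TGAGTCA), the full CRE (TGACGTCA), the monomeric Nur77 element NBRE (AAAGGTCA), an NF-kappaB motif and an interferon response motif of 10 letters each, and none of the 6 entries held any of them. Among all 32851 promoter entries the AP-1 site was in 5.20%, the CRE in 1.79%, the NBRE in 1.51%, the NF-kappaB motif in 1.47% and the interferon response motif in 3.44%. The CRE core TGACG, which is also part of the full CRE and is in 20.8% of all entries, was in 1 entry each of Atf3, Jdp2 and Batf, and the core hexamer AGGTCA, part of the NBRE and in 16.3% of all entries, was in the same Jdp2 entry; both cores were added after the promoters had been seen. These 3 entries are shown because they belong to the genes with the highest Pol II values, with the cores in capitals (CRE core in Atf3 and Batf; AGGTCA first and the CRE core second in Jdp2).
Atf3, chr1:191183284-191183583, minus strand: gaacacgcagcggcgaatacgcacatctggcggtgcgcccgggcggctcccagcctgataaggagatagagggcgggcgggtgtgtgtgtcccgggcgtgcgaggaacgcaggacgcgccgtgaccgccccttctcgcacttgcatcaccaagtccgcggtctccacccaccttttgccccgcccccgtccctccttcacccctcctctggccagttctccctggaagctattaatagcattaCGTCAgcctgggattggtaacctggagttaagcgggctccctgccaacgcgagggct
Jdp2, chr12:85599166-85599465, plus strand: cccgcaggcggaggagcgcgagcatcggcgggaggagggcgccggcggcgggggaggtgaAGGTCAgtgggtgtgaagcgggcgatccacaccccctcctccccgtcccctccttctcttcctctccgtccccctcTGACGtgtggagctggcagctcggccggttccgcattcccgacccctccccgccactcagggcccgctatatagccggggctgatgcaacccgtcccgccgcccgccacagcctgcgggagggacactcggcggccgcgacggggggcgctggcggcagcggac
Batf, chr12:85686470-85686769, plus strand: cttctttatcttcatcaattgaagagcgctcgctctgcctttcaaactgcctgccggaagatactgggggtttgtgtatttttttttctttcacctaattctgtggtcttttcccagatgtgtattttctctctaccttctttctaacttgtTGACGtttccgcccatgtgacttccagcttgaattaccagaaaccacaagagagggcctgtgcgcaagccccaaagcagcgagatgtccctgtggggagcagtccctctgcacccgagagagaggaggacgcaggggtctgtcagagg

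The Pol II libraries held 21.7 to 36.1 M (mega) tags, the H3K27ac libraries 13.5 to 55.4 M and the inputs 25.6 to 45.3 M. The deposited values are tags per 10 M within enriched regions, each region as 1 flat block, so a start cannot be told from a gene body inside 1 long region. A gene outside any region is listed at 0, since a region needed about 4.88 to 8.15 tags in 500 bp. In the inputs the gene windows held 0 to 66.3 tags for Jdp2, 34.7 to 624 for Atf3, 0 to 162 for Batf, 0 to 80.2 for Batf2 and 0 to 7.62 for Batf3. Pol II over Nr4a1 itself at 0 h was 189, 188 and 208 tags in WT and 87.8, 76.1 and 70.2 in Nur77-KO, a difference of -1.22 ± 0.17 (log2, SE; adjusted p = 0.00012 with limma). At 1 h it was 25.5, 23.0 and 30.4 tags in WT and 33.5, 39.0 and 36.6 in Nur77-KO, every Nur77-KO library above the WT libraries (0.36, adjusted p = 0.089), and at 18 h 7.46, 5.98 and 0 in WT and 0 in all 3 Nur77-KO libraries, near the lowest value a region could have. Over the principal Nr4a1 transcript it was then 0 in every library of both genotypes. H3K27ac within 2500 bp of the principal Nr4a1 start at 0 h was 44.8, 31.5 and 33.0 tags in WT and 26.3, 23.2 and 17.9 in Nur77-KO, with no overlap. The genotypes overlapped there at 1 and 18 h, and at the record start at each time. All 6 macrophage markers averaged at least 100 Pol II tags, whereas Ly6g, S100a9 and Elane of neutrophils, Cd3e and Cd3g of T cells, both mast cell markers and the fibroblast collagens Col1a1 and Col1a2 were listed at 0 in every Pol II library. Other lymphocyte and neutrophil markers were not at 0: Lck of T cells held 56.9 to 146.5 tags, Cd79a and Ms4a1 of B cells 33.8 to 116 and 0 to 72.3, and S100a8 of neutrophils 0 to 45.3. Of 3 markers of dendritic cells, where Batf3 is best known, 1 (Xcr1) averaged over 100 tags, Flt3 averaged 5.37 and Zbtb46 39.9. Summed marker lists also moved with genotype. Adgre1 made up the largest part of the macrophage sum. It averaged 15753 Pol II tags over all libraries, against 537 to 3046 for each other macrophage marker. Pol II over the macrophage markers was 17968 to 20461 tags in WT and 20165 to 20677 in Nur77-KO at 0 h. It was 26247 to 26965 and 16626 to 17258 at 1 h, then 37494 to 38102 and 31856 to 33016 at 18 h. Over the neutrophil markers it was 15.4 to 16.6 in WT and 39.3 to 45.3 in Nur77-KO at 0 h (H3K27ac 72.4 to 86.4 and 162 to 179), all of the Pol II in S100a8. At 1 h it was 0 in WT and 8.62 to 17 in Nur77-KO. The other Pol II lists with no overlap were T cells at 1 h and B cells at 1 and 18 h. The T cell sum was 108 to 115 tags in WT and 133 to 146.5 in Nur77-KO, all in Lck. The B cell sum was 41.4 to 53.0 and 59.5 to 77.8 at 1 h. At 18 h it was 106 to 121 and 80.1 to 82.8. More H3K27ac sums had no overlap (WT first). For macrophages they were 3312 to 3534 and 3541 to 4465 at 1 h, then 4737 to 4947 and 3662 to 4198.5 at 18 h. For B cells they were 262 to 287 and 170 to 243 at 0 h, 325 to 363 and 159 to 242 at 18 h. Neutrophils held 20.3 to 29.4 and 65.0 to 113 at 1 h, and dendritic cells 292 to 316 and 261 to 286 at 0 h. The part of these lists in the genotype differences below was not tested, and fewer cells of a type cannot be told apart from less signal per cell.
The H3K27ac libraries of the Nur77-KO did not hang together after LPS. At 1 h replicate 1 correlated at 0.978 to 0.980 with the WT 1 h libraries (Pearson r of log2 values over 10440 genes) and at 0.912 to 0.913 with replicates 2 and 3 of its own group, while replicates 2 and 3 correlated at 0.904 to 0.906 with WT 1 h and at 0.991 with each other. At 18 h replicate 1 correlated at 0.914 to 0.915 with its own group, at 0.908 to 0.910 with WT 18 h and at up to 0.905 with the Nur77-KO 1 h replicates 2 and 3. Replicates 2 and 3 at 18 h correlated at 0.979 to 0.983 with WT 18 h and at 0.993 with each other. Whether the genotype and time labels of these 6 libraries are right could not be checked from their values, so each is named below as it is labelled. All remaining H3K27ac pairs within a group correlated at 0.986 or more and all Pol II pairs within a group at 0.985 or more. H3K27ac genotype results that rest on these libraries are therefore also given without replicate 1 of the Nur77-KO at 1 and 18 h, and with the Nur77-KO at 1 h taken from replicate 1 alone (at 18 h from replicates 2 and 3); in the second case the single library was assumed to vary like the other groups.

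Jdp2 had the widest range of Pol II values among the 5 genes. In WT BMDMs the gene with 500 bp either side held 132, 164 and 146 tags at 0 h, 11752, 11634 and 12013 at 1 h, then 1503, 1456.5 and 1529 at 18 h. In Nur77-KO BMDMs it held 100.2, 133 and 112 tags at 0 h, 8352, 7715 and 7873 at 1 h, then 3129.9, 3158 and 3048 at 18 h. The mean thus rose 80.1-fold in WT and 69.4-fold in Nur77-KO within 1 h, and at 18 h stood 10.2-fold above 0 h in WT and 27.1-fold above it in Nur77-KO. At 0 h the groups overlapped, with the highest Nur77-KO library above the lowest WT library. At 1 h every WT library lay above every Nur77-KO library, and at 18 h every Nur77-KO library lay above every WT library.

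**Figure D1:**
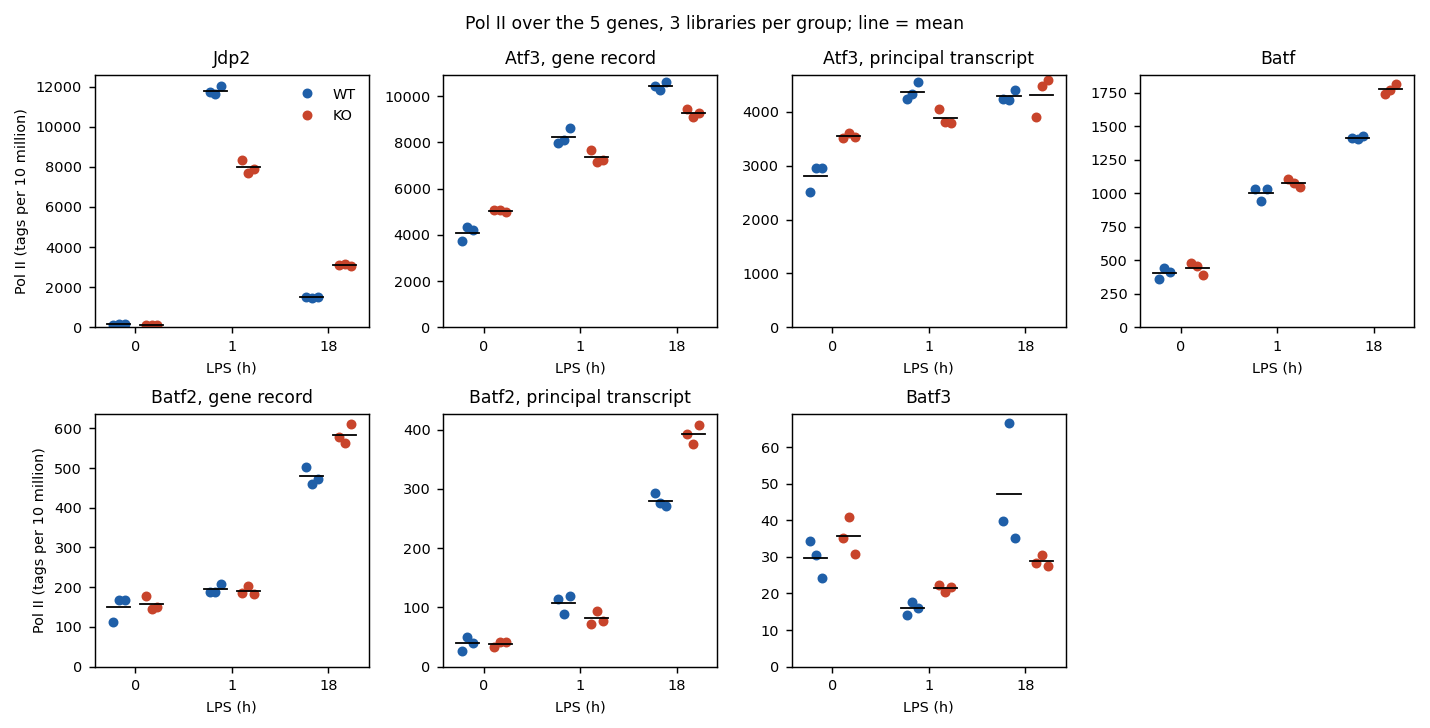
Pol II tags per 10 M (vertical axis, linear, from 0) by hours of LPS for each gene, with each point 1 library and each line the mean of 3; Atf3 and Batf2 are shown over the gene record and over the principal transcript. For Jdp2 the WT points lie between 11634 and 12013 tags at 1 h and between 1456.5 and 1529 at 18 h, where the Nur77-KO points lie at 3048 to 3158.

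The genotype difference of Jdp2 was -0.34 ± 0.08 at 0 h (log2 of Nur77-KO over WT, SE; limma adjusted p = 0.017), -0.56 ± 0.08 at 1 h (adjusted p = 4.8e-05) and 1.05 ± 0.08 at 18 h (adjusted p = 6.1e-08), that is, Nur77-KO means of 0.780, 0.676 and 2.08 times the WT mean. Between 1 and 18 h Pol II over Jdp2 fell by 2.97 in WT and by 1.36 in Nur77-KO on the log2 scale. The change from 0 to 18 h was larger in Nur77-KO by 1.39 ± 0.12 (adjusted p = 5.4e-07), while the change from 0 to 1 h differed by -0.23 ± 0.12 (adjusted p = 0.18). All Nur77-KO and WT changes from 0 h share the 0 h libraries of their genotype. The 0 h difference lost its call without replicate 1 (adjusted p = 0.065) or without replicate 3 (0.22), whereas the differences at 1 h, at 18 h and in the 18 h change kept theirs without each replicate.

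The regions behind these values show where Pol II lay along Jdp2. At 0 h Pol II was near the start: the region at the start was 7.67, 9.56 and 9.08 kb long in WT and 3.58, 7.29 and 3.98 kb in Nur77-KO, with 1 to 3 smaller regions after it. In the 500 bp either side of the start the order of the genotypes at 0 h was opposite to that over the gene, with 19.8, 20.7 and 22.6 tags in WT and 33.4, 24.0 and 29.9 in Nur77-KO (log2 difference 0.33, adjusted p = 0.031). At 1 h a single region of 54.1 to 55.7 kb covered the whole gene in all 6 libraries and ended 50.3 to 51.2 kb from the start, about 10 kb past the gene's end. At 18 h the single region remained, with 1926, 1877 and 1942 tags in WT and 4271.5, 4297 and 4162 in Nur77-KO.

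**Figure D2:**
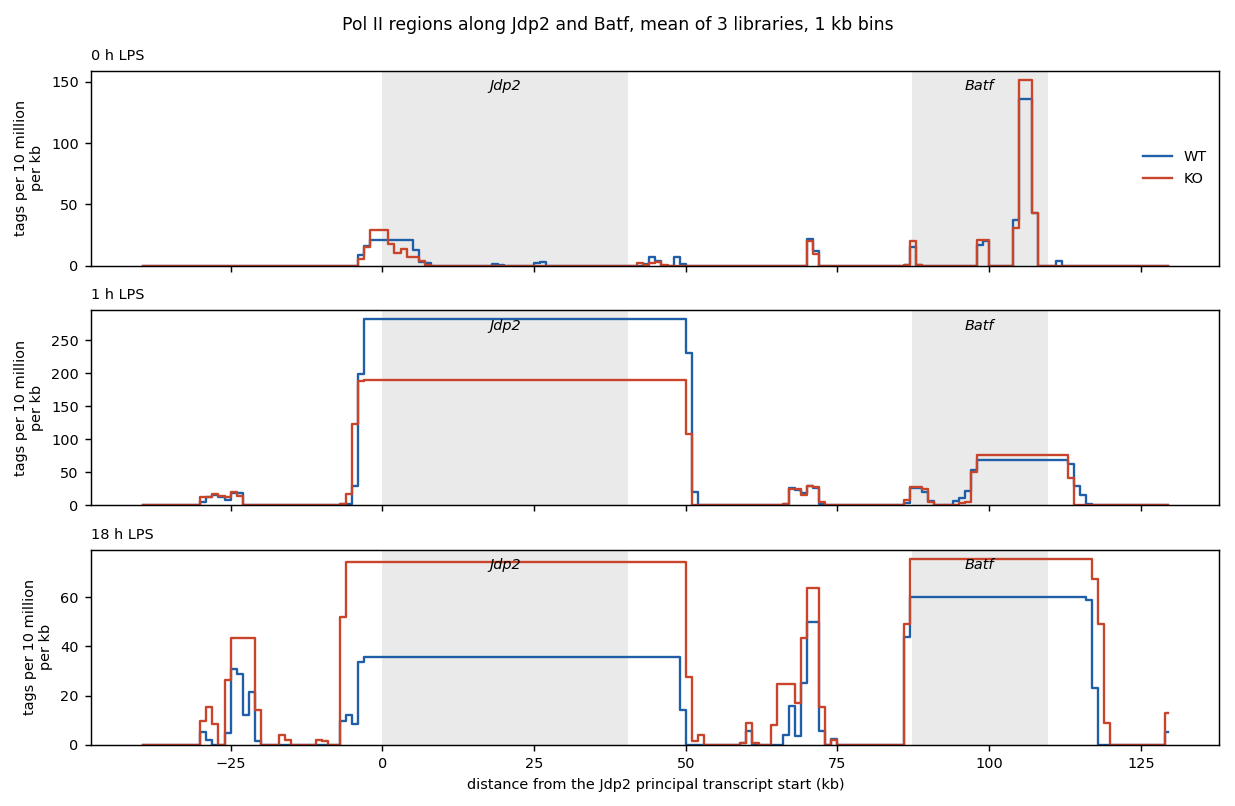
Mean Pol II tags per 10 M per kb (3 libraries, bins of 1 kb) against distance from the Jdp2 principal transcript start, at 0, 1 and 18 h of LPS, each row with its own axis from 0. The block over Jdp2 stands at 282 tags per kb in WT and 191 in Nur77-KO at 1 h, and at 35.7 in WT and 74.4 in Nur77-KO at 18 h, when a block over Batf is present in both genotypes.

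Atf3, the LPS-inducible partner and relative of Jdp2, was already occupied without LPS. Over the gene record WT BMDMs held 3714, 4318 and 4225 tags at 0 h, 7966, 8110 and 8606 at 1 h, then 10437, 10244 and 10588 at 18 h. Nur77-KO BMDMs held 5087, 5074 and 4965 at 0 h, 7655, 7168 and 7218 at 1 h, then 9459.9, 9112.5 and 9251 at 18 h. The Nur77-KO libraries lay above all WT libraries at 0 h and below all WT libraries at 1 and 18 h.
The difference was 0.31 ± 0.05 at 0 h (log2, limma adjusted p = 0.0011), -0.16 at 1 h (adjusted p = 0.018) and -0.17 at 18 h (adjusted p = 0.029). The rise with LPS was smaller in Nur77-KO, by 0.47 ± 0.07 at 1 h (adjusted p = 0.00039) and by 0.47 ± 0.07 at 18 h (adjusted p = 0.00032), on means that rose 2.01-fold and 2.55-fold in WT and 1.46-fold and 1.84-fold in Nur77-KO. The 1 h and 18 h differences lost their calls without replicate 2 or without replicate 3 (adjusted p = 0.16 and 0.23 at 1 h, 0.20 and 0.22 at 18 h).

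Over the principal Atf3 transcript the tags in WT were 2519, 2954 and 2964 at 0 h, 4248, 4326 and 4554 at 1 h, then 4237, 4221 and 4396.5 at 18 h. In Nur77-KO they were 3513, 3612 and 3534 at 0 h, 4046, 3809 and 3789.7 at 1 h, then 3899.9, 4476 and 4589 at 18 h. The 0 h and 1 h differences were like those over the record (0.34 ± 0.07, adjusted p = 0.0037, and -0.17, adjusted p = 0.045), but at 18 h the groups overlapped and the difference was 0.01 (adjusted p = 0.94). The smaller LPS rise in Nur77-KO held here too, at -0.51 for 1 h (adjusted p = 0.0015) and -0.33 for 18 h (adjusted p = 0.027). The rest of the record lies upstream of the principal start: in WT the Pol II region over the transcript began at -4.57 to -4.03 kb from the principal start at 0 h, at -12.4 to -12.3 kb at 1 h and at -21.0 to -20.3 kb at 18 h. Separate regions lay further upstream at 0 h, the largest from about 19 to 13 kb with 352.5, 389.8 and 409.4 tags, and at 1 h regions from about 18 to 13 kb held 163 tags in replicate 1, 106.3 and 25.3 in 2 regions of replicate 2, and 194 in replicate 3. In replicates 2 and 3 of the Nur77-KO at 18 h the stretch was split about 13 kb upstream. The principal transcript then held 319 and 327 tags per kb in these replicates. Where 1 region covered the stretch it held 278 in Nur77-KO replicate 1 and 301 to 313 in WT. The part of this split in the 18 h values over the principal transcript was not tested.

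Batf was higher after LPS in both genotypes. WT BMDMs held 357, 444 and 414 tags at 0 h, 1027, 940 and 1031 at 1 h, then 1407, 1403 and 1423 at 18 h. Nur77-KO BMDMs held 478, 454 and 389 at 0 h, 1102, 1077 and 1047 at 1 h, then 1739, 1769.5 and 1812 at 18 h. The means rose 2.47-fold and 3.48-fold in WT and 2.44-fold and 4.02-fold in Nur77-KO. The groups overlapped at 0 h, and at 1 and 18 h every Nur77-KO library lay above every WT library. At 18 h the Nur77-KO mean was 1.26 times the WT mean.
The genotype difference was 0.12 ± 0.08 at 0 h (limma adjusted p = 0.47), 0.11 at 1 h (0.29) and 0.33 at 18 h (0.0075), the last lost without replicate 2 (adjusted p = 0.080) or replicate 3 (0.072). The LPS change did not differ between genotypes at the threshold (-0.01 at 1 h, adjusted p = 0.95, and 0.21 at 18 h, adjusted p = 0.24). At 0 h most of the Batf tags lay in a region 2.26 to 2.78 kb long, about 17.3 to 20.1 kb after the start, with 312.3 to 413.7 tags. At 18 h 1 region of 30.7 to 33.2 kb covered the whole gene.

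Batf2 was low at 0 and 1 h and high at 18 h over its principal transcript. WT BMDMs held 26.5, 49.8 and 40.5 tags there at 0 h, 114, 89.1 and 119.6 at 1 h, then 293, 276 and 271 at 18 h. Nur77-KO BMDMs held 32.5, 42.2 and 41.8 at 0 h, 72.6, 93.6 and 77.7 at 1 h, then 392, 376 and 408 at 18 h. The means rose 2.76-fold and 7.19-fold in WT and 2.09-fold and 10.1-fold in Nur77-KO. The 18 h Pol II region ran past the end of this 8.04 kb transcript, to 20.9 to 22.9 kb from its start in WT. In Nur77-KO it ran to 23.0 to 25.7 kb, so the 18 h values are an even share of a longer region. At 18 h the Nur77-KO libraries lay above all WT libraries, a difference of 0.47 (log2, limma adjusted p = 0.044) that lost its call without any 1 of the 3 replicate numbers (adjusted p = 0.065, 0.096 and 0.31). At 1 h the difference was -0.36 (adjusted p = 0.071), with 1 Nur77-KO library inside the WT range, and at 0 h 0.02 ± 0.16. Over the whole record, which holds the Pol II of the neighbour Arl2 at its start, the values were 113 to 168 tags in WT and 146 to 178 in Nur77-KO at 0 h, and 461 to 504 in WT and 563 to 612 in Nur77-KO at 18 h. That record difference was 0.28 at 18 h (adjusted p = 0.11), -0.04 at 1 h and 0.09 ± 0.12 at 0 h.

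Batf3 had the lowest values. WT BMDMs held 34.2, 30.7 and 24.2 tags at 0 h, 14.1, 17.7 and 15.9 at 1 h, then 39.9, 66.6 and 35.3 at 18 h. Nur77-KO BMDMs held 35.2, 41.0 and 30.7 at 0 h, 22.2, 20.4 and 21.8 at 1 h, then 28.2, 30.5 and 27.6 at 18 h. At 18 h each WT library lay above each Nur77-KO library, and the highest, WT replicate 2, had a region that began at -14.3 kb from the start and held 582.2 tags in all. The difference was -0.52 at 18 h (limma adjusted p = 0.033) and the 18 h change differed by -0.73 ± 0.24 (adjusted p = 0.047). The 18 h difference lost its call without any 1 of the 3 replicate numbers (adjusted p = 0.13, 0.23 and 0.064), and so did the difference in the 18 h change (0.15, 0.24 and 0.11). At 0 and 1 h the differences were 0.20 ± 0.17 (0.57) and 0.28 (0.17).

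**Figure D3:**
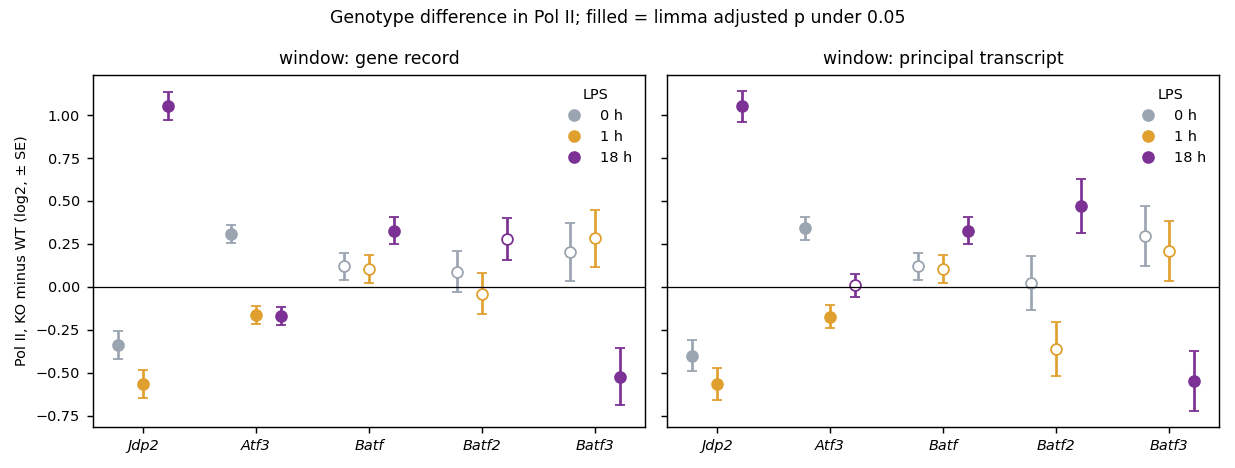
Log2 difference in Pol II between Nur77-KO and WT (± SE from limma) for each gene at 0, 1 and 18 h, over the gene record and over the principal transcript; filled points have an adjusted p under 0.05. Jdp2 is the gene whose filled points lie on both sides of 0 with the widest span, from -0.56 at 1 h to 1.05 at 18 h over the record.

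Per kb of the gene record window at 1 h in WT, the mean level was 282 tags for Jdp2, 169 for Atf3, 42.7 for Batf, 6.00 for Batf2 and 1.31 for Batf3. At 18 h in WT the order was Atf3 (214 tags per kb), Batf (60.3), Jdp2 (35.7), Batf2 (14.7) and Batf3 (3.91), and in Nur77-KO it was Atf3 (190.3), Batf (75.7), Jdp2 (74.4), Batf2 (18.0) and Batf3 (2.38). The Nur77-KO values of Batf and Jdp2 at 18 h overlapped, with SDs of 1.57 and 1.37. At 0 h Atf3 led with 83.8 tags per kb in WT and 103 in Nur77-KO, and the other 4 genes were below 20.

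All 5 genes were above the filter on low values. Of them, 2 of 5 differed between genotypes at 0 h by limma adjusted p (Atf3 higher, Jdp2 lower), beside 6.96% of all genes tested (4.24% higher and 2.73% lower). At 1 h it was 2 of 5, both lower (Jdp2 and Atf3), beside 45.7% of all genes, 38.2% higher and 7.47% lower; with each library centred on its own median 3 of 5 were lower, beside 15.6% higher and 21.5% lower. At 18 h it was 4 of 5 (Jdp2 and Batf higher, Atf3 and Batf3 lower), beside 21.1%, 7.59% higher and 13.5% lower, and 3 higher with centred libraries, beside 15.4% and 7.76%. The median difference of the 5 genes was 0.12, -0.04 and 0.28 at the 3 times, that of all genes 0.04, 0.24 and -0.10. For the change with LPS, 1 of 5 differed between genotypes at 1 h (Atf3), beside 18.5% of all genes, and 3 of 5 at 18 h, beside 14.8%. Between 67.3% and 72.4% of the Pol II regions of a library overlapped an input region, and with all such regions removed 0 of 5 genes were called between genotypes at 0 h or at 18 h, since the regions over these genes were then mostly removed.
In WT, 4 of the 5 genes rose at 1 h beside 18.6% of all genes, and 1 (Batf3, -0.61) fell beside 68.5%. All 5 rose at 18 h beside 33.3%, with 33.3% of all genes lower. In Nur77-KO, 3 rose at 1 h (Jdp2, Atf3, Batf) beside 20.7% and Batf3 fell (-0.53) beside 62.2%; at 18 h 4 rose beside 28.1%, with 42.2% lower and Batf3 at -0.23 (adjusted p = 0.23). Between 18 and 1 h, 5 of 5 differed in WT beside 85.4% of all genes and 4 of 5 in Nur77-KO beside 79.5%, with Jdp2 the 1 gene lower at 18 h in each genotype. With each library centred on its own median, calls of Atf3 (0.34 in each genotype) and of Batf in WT (0.49) turned to falls, Atf3 to -0.53 in WT and -0.14 in Nur77-KO and Batf to -0.37 in WT, while Batf in Nur77-KO stayed higher (0.24). Whether Atf3, and Batf in WT, gained Pol II between 1 and 18 h thus depends on the scaling.

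The whole distribution of Pol II values moved with LPS, by a median over all genes of -0.82 at 1 h in WT and -0.62 in Nur77-KO. With each library centred on its own median, 37.1% of all genes were higher and 38.2% lower at 1 h in WT, and 36.3% and 38.5% in Nur77-KO. On that scale the genotype differences of Jdp2 were -0.36, -0.82 and 1.19 at 0, 1 and 18 h, and those of Atf3 were 0.28, -0.41 and -0.03, the last with an adjusted p of 0.68. Batf at 18 h became 0.47, and Batf3 at 18 h -0.38 (adjusted p = 0.14). The 1 h values of Batf3 turned from a decrease to 0.19 in WT and 0.04 in Nur77-KO when centred.

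The factors with which these proteins pair or share sites were counted from a list of 9 genes: the Jun genes Jun, Junb and Jund, the Fos genes Fos, Fosb, Fosl1 and Fosl2, and Irf4 and Irf8. At 0 h 2 of 9 were higher in Nur77-KO (Irf4 by 1.08 and Jund by 0.34; limma, adjusted over all genes), beside 4.24% of all genes. At 1 h 5 of 9 were higher (Irf4 1.33, Jun 0.71, Fos 0.41, Fosb 0.40 and Junb 0.26), beside 38.2% of all genes, and 1 was lower, beside 7.47%. The lower gene was Irf8, the BATF partner of dendritic cells and macrophages (-1.24 ± 0.06, adjusted p = 2.1e-10), with a mean of 1215 tags in WT and 509 in Nur77-KO. At 18 h 4 of the 8 tested were lower (Fosl1 -1.38, Fos -0.47, Jun -0.37 and Fosl2 -0.34), beside 13.5% of all genes, and with centred libraries 3 were lower and 1, Irf8, higher (0.16), beside 7.76% and 15.4%. At 1 h centring left 2 of the 5 higher genes with a call (Irf4 1.08 and Jun 0.45), beside 15.6% of all genes, and Irf8 stood at -1.49. The medians of this list were 0.09, 0.26 and -0.21 at the 3 times, the last over the 8 tested genes, without Irf4 (0.25).
At 1 h in WT 6 of 9 partner genes fell, beside 68.5% of all genes, and Junb, Jund and Irf4 rose, beside 18.6%; centring turned Fosl2 from lower to higher. Mean Pol II over Jun went from 968 tags at 0 h to 217 at 1 h in WT and from 856 to 360.4 in Nur77-KO, and over Fos from 1519 to 392 and from 1587 to 524. At 18 h 6 of 9 were lower than at 0 h in each genotype, beside 33.3% of all genes in WT and 42.2% in Nur77-KO, with 2 higher in WT and 1 in Nur77-KO, beside 33.3% and 28.1%. The LPS change differed between genotypes for Jun (0.88) and Irf8 (-1.21) at 1 h and for 4 of 9 at 18 h, all lower (Fos, Fosl1, Fosl2 and Jund), beside 18.5% and 14.8% of all genes in either direction.
Of 10 other genes of the ATF/CREB group, 1 was lower at 0 h (Atf6, -0.84) beside 2.73% of all genes, 3 were higher at 1 h (Atf1, Cebpg and Crem) beside 38.2%, and 2 were lower at 18 h (Atf6, -1.11, and Atf7) beside 13.5%. With centred libraries Crem stayed higher at 1 h and Atf7 was lower (-0.44). At 18 h Atf6 stayed lower and Cebpg (0.26) and Crem (0.54) were higher. The medians as deposited were 0.02, 0.15 and 0.00. In WT 2 rose and 7 fell at 1 h, beside 18.6% and 68.5% of all genes, and 4 rose and 0 fell at 18 h by limma, beside 33.3% each way (5 of the 10 had an unadjusted p under 0.05, beside 69.4%). With centring the 1 h split became 4 higher and 4 lower, beside 37.1% and 38.2%, Cebpg turning from lower to higher.

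By Pearson r of log2 Pol II over the 18 libraries, the genes most like Jdp2 were Gm49721 and Rnaset2b (0.998 each), which overlap each other, and the stress gene Gadd45b (0.995). The genes most like Atf3 were Stat5b (0.980), Plxna1 (0.980) and the TNF receptor gene Tnfrsf1b (0.979). Batf was most like the MHC gene H2-Q6 (0.995), Tagap (0.995) and the pattern receptor gene Nod1 (0.994). Batf2 was most like Gm6904 (0.990), Med12l (0.989) and Trim56 (0.988), and Batf3 most like Eif2b4 (0.911), Polk (0.910) and Gm17949 (0.894). Among the 5 genes r was 0.953 for Atf3 with Batf, 0.773 for Jdp2 with Batf, 0.748 for Jdp2 with Atf3 and -0.562 for Jdp2 with Batf3. These r values are descriptions over 6 groups of 3 libraries, whose points share library, depth and group.

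H3K27ac at the starts also moved with LPS. Within 2500 bp of the principal start Jdp2 held 258, 258 and 274 tags in WT at 0 h, 459, 437 and 415 at 1 h, then 340.1, 331 and 329 at 18 h. In Nur77-KO it held 281, 279.9 and 266 at 0 h, 428, 451 and 348 at 1 h, then 327, 518 and 513 at 18 h. The rise at 1 h was 0.71 in WT (log2, limma adjusted p = 0.00033) and 0.55 in Nur77-KO (adjusted p = 0.0036), and the change at 18 h was 0.33 (adjusted p = 0.052) and 0.67 (adjusted p = 0.00061). The region over the start was longer after LPS, and the tags of a region are spread evenly over its length. Values within 1000 bp of the start after LPS are thus averages over the long region. They cannot show whether the start itself gained tags. The region over the start was 2.91 to 3.09 kb long in WT and 2.86 to 3.06 kb in Nur77-KO at 0 h. It was 13.6 to 15.6 and 9.69 to 13.5 kb at 1 h, then 12.4 to 13.5 and 11.9 to 16.5 kb at 18 h. Within 1000 bp of the start the mean was 87.0, 87.5 and 66.6 tags per kb in WT and 93.6, 81.8 and 90.5 in Nur77-KO at 0, 1 and 18 h. On that narrow window the LPS changes were 0.01 and -0.36 in WT (adjusted p = 0.97 and 0.040) and -0.19 and -0.07 in Nur77-KO (0.27 and 0.69). At 18 h Nur77-KO replicates 2 and 3 lay above all WT libraries and replicate 1 below them. The genotype difference at 18 h was 0.40 ± 0.13 (adjusted p = 0.11) with all libraries and 0.61 without replicate 1 (adjusted p = 0.00019), and the change from 0 h then differed by 0.55 (adjusted p = 0.0055).
The repressor gene Atf3 held 578, 590.2 and 622 tags in WT at 0 h, 703, 712 and 702 at 1 h, then 1504, 1454 and 1255 at 18 h. In Nur77-KO it held 703, 491 and 669.8 at 0 h, 650.2, 834 and 633 at 1 h, then 1053, 1211 and 1222 at 18 h. All Nur77-KO libraries lay below the WT libraries at 18 h, a difference of -0.27 (adjusted p = 0.26) with all libraries and -0.20 (adjusted p = 0.31) without replicate 1, and the rise from 0 to 18 h was 1.22 in WT and 0.91 in Nur77-KO. At the record start, 34.7 kb upstream, Nur77-KO replicate 1 at 18 h held 696 tags while the other replicates held 50.5 and 34.1. The 696 tags are an even share of 1 region of 69.3 kb with 9641 tags in that library. Replicates 2 and 3 had only short regions there, of 1.60 to 2.50 kb.

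Batf went from 31.8, 22.5 and 28.8 tags at 0 h to 131, 108 and 110.4 at 1 h and 218, 153 and 145 at 18 h in WT. In Nur77-KO it went from 23.9, 31.1 and 20.3 to 102.5, 143 and 134 and then to 208, 186 and 157. The genotypes overlapped at each time, and the LPS changes were 1.75 and 2.26 in WT and 1.96 and 2.47 in Nur77-KO.
Batf2, at its principal start, held 65.5, 68.3 and 68.3 tags in WT at 0 h, 180, 205 and 198 at 1 h, then 294, 306 and 302 at 18 h. In Nur77-KO it held 74.9, 75.9 and 85.0 at 0 h, 156, 95.5 and 79.4 at 1 h, then 269, 483 and 433 at 18 h. The 1 h difference was -0.81 ± 0.20 (limma adjusted p = 0.015) with all libraries and -1.07 without Nur77-KO replicate 1, but -0.30 (adjusted p = 0.064) with replicate 1 alone. At 18 h it was 0.34 (adjusted p = 0.37), and 0.59 without replicate 1 (adjusted p = 0.00035), which was the 1 library below the WT range. The LPS changes of Batf2 were 1.40 and 2.01 in WT and 0.39 (adjusted p = 0.12) and 2.15 in Nur77-KO.
Batf3 held 85.6, 69.4 and 70.6 tags in WT at 0 h, 66.6, 100.5 and 86.9 at 1 h, then 118, 118 and 97.9 at 18 h. In Nur77-KO it held 79.3, 81.4 and 87.1 at 0 h, 71.0, 28.6 and 34.9 at 1 h, then 36.8, 108 and 86.5 at 18 h. At 1 h the difference was -0.85 ± 0.29 (adjusted p = 0.054) with all libraries, -1.17 (adjusted p = 1e-05) without replicate 1 and -0.21 (adjusted p = 0.57) with replicate 1 alone.

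**Figure D4:**
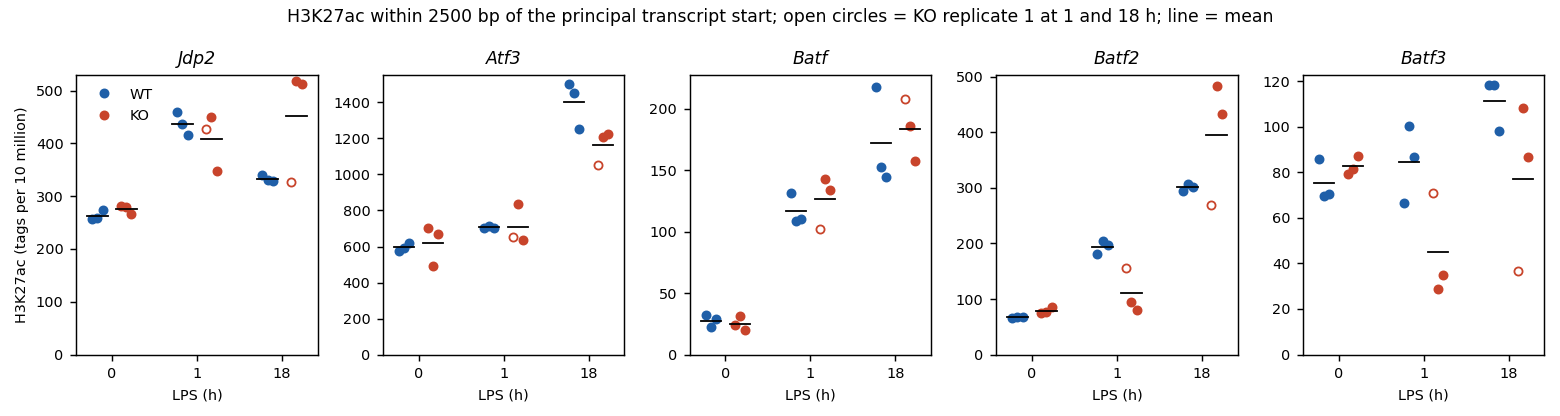
H3K27ac tags per 10 M within 2500 bp of the principal transcript start (vertical axis, from 0) by hours of LPS for the 5 genes. Each point is 1 library, each short line the mean of 3, and open circles are Nur77-KO replicate 1 at 1 and 18 h. For Jdp2 and Batf2 at 18 h the open circle lies below the WT points and the other Nur77-KO points, 513 and 518 for Jdp2 and 433 and 483 for Batf2, lie above them.

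Counted at the starts of the gene records, 0 of 5 genes differed between genotypes in H3K27ac by limma at 0, 1 or 18 h, beside 0.77%, 18.6% and 3.24% of all genes tested; 1, 2 and 1 had an unadjusted p under 0.05, beside 10.1%, 35.9% and 19.6%. At the principal starts the counts were 0, 1 (Batf2, lower) and 0, beside 0.746%, 18.7% and 3.39%. Without Nur77-KO replicate 1 a larger share of all genes was called. The counts were then 1, 3 and 1 of 5 at the record starts, beside 10.3%, 59.8% and 19.0%. They were 0, 2 (Batf2 and Batf3, lower) and 2 (Jdp2 and Batf2, higher) at the principal starts, beside 10.3%, 59.8% and 18.8%. Of all genes at the principal starts 24.3% were lower at 1 h and 4.40% higher at 18 h in that fit. With the Nur77-KO at 1 h from replicate 1 alone the counts were 1, 0 and 1 at the record starts, beside 9.78%, 8.55% and 18.6%, and 0, 0 and 2 at the principal starts, beside 9.67%, 8.29% and 18.6%.
The LPS change differed between genotypes for 0 of 5 at 1 h and 0 of 5 at 18 h, beside 0.551% and 0.605%, with 1 and 0 at an unadjusted p under 0.05, beside 20.5% and 13.0%. At the record starts in WT 2 rose and 1 fell at 1 h, beside 25.3% higher and 29.4% lower, and 2 rose and 0 fell at 18 h, beside 23.5% and 26.5%. In Nur77-KO 2 rose and 1 fell at 1 h, beside 20.4% and 26.6%, and 3 rose and 0 fell at 18 h, beside 18.4% and 34.2%. The gene that fell in WT is Batf2, whose record start lies at Arl2, while its principal start rose by 1.40. At the principal starts in WT 3 rose at 1 h (Jdp2, Batf and Batf2) beside 25.7%, 3 rose at 18 h (Atf3, Batf and Batf2) beside 23.6%, and 0 fell at either time. In Nur77-KO 2 rose and Batf3 fell at 1 h, beside 20.7% and 26.4%, and 4 rose and 0 fell at 18 h, beside 18.6% and 34.2%. Between 18 and 1 h 3 of 5 record starts differed in WT beside 57.6% and 2 of 5 in Nur77-KO beside 44.5%.

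Within 50 kb of the 5 record starts lay 42 distinct H3K27ac regions merged over the libraries: 8 near Jdp2, 3 near Atf3, 12 near Batf, 8 near Batf2 and 14 near Batf3, with 3 near both Jdp2 and Batf. A region was called at a limma adjusted p under 0.05 and a log2 change over 1 in size. In WT 8 of 28 tested rose at 1 h beside 14.9% of all regions and 4 fell beside 25.9%, and at 18 h 9 of 30 rose beside 13.4% and 3 fell beside 25.5%. In Nur77-KO 7 of 29 rose at 1 h beside 10.6% and 7 fell beside 16.7%, and at 18 h 11 of 34 rose beside 13.7% and 3 fell beside 26.4%. Some of these calls are against a group listed at 0 in all its libraries, and such a region was tested only through the group where it is high. That holds for 2 of the 8 and 1 of the 4 at 1 h and 2 of the 9 and 2 of the 3 at 18 h in WT, and for 1 of the 7 and 1 of the 7 at 1 h and 3 of the 11 and 0 of the 3 at 18 h in Nur77-KO. By gene, the WT regions that rose at 18 h included 5 near Batf (2 of them at 0 in WT without LPS), 2 near Jdp2 and 1 each near Atf3 and Batf2, while near Batf3 0 rose and 2 fell, 1 of them to 0.

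The region with the highest mean near Jdp2 covers its start (chr12:85588540-85610780). It held 1338, 1256 and 1332 tags in WT at 1 h and 905, 865 and 928 at 18 h, against 1224, 947.5 and 989.6 at 1 h and 1079, 1371.5 and 1264 at 18 h in Nur77-KO. The genotype difference was -0.32 at 1 h (adjusted p = 0.022) and 0.45 at 18 h (adjusted p = 0.0071) with all libraries. Without Nur77-KO replicate 1 it was -0.43 and 0.55 (adjusted p = 9.4e-07 and 7.3e-07), but with replicate 1 alone at 1 h it was -0.09 (adjusted p = 0.22), so the 1 h difference rests on replicates 2 and 3. Mean Pol II within this same region was 189, 4281.5 and 577 tags at 0, 1 and 18 h in WT and 168, 3069 and 1347 in Nur77-KO.
An upstream region, 30.9 to 19.2 kb before Jdp2 (chr12:85568141-85579786), was low without LPS and rose with it. It held 59.0, 52.9 and 39.2 tags in WT at 0 h, 331, 308 and 278 at 1 h, then 412, 445 and 407 at 18 h. In Nur77-KO it held 48.2, 39.5 and 43.6 at 0 h, 270, 108 and 139 at 1 h, then 421, 715 and 588 at 18 h. The LPS changes were 2.40 and 2.85 in WT and 1.67 and 3.41 in Nur77-KO. The genotype difference was -0.89 at 1 h (adjusted p = 0.016) with all libraries and -1.25 without Nur77-KO replicate 1, whose own value was the highest of its group, and -0.17 (adjusted p = 0.54) with that replicate alone. At 18 h it was 0.41 (adjusted p = 0.31), and 0.61 without replicate 1 (adjusted p = 0.0049). No library of either genotype listed Pol II in this region without LPS (value 0), and at 18 h it was 103, 103 and 114 tags in WT and 241, 251 and 251 in Nur77-KO, with no overlap.

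**Figure D5:**
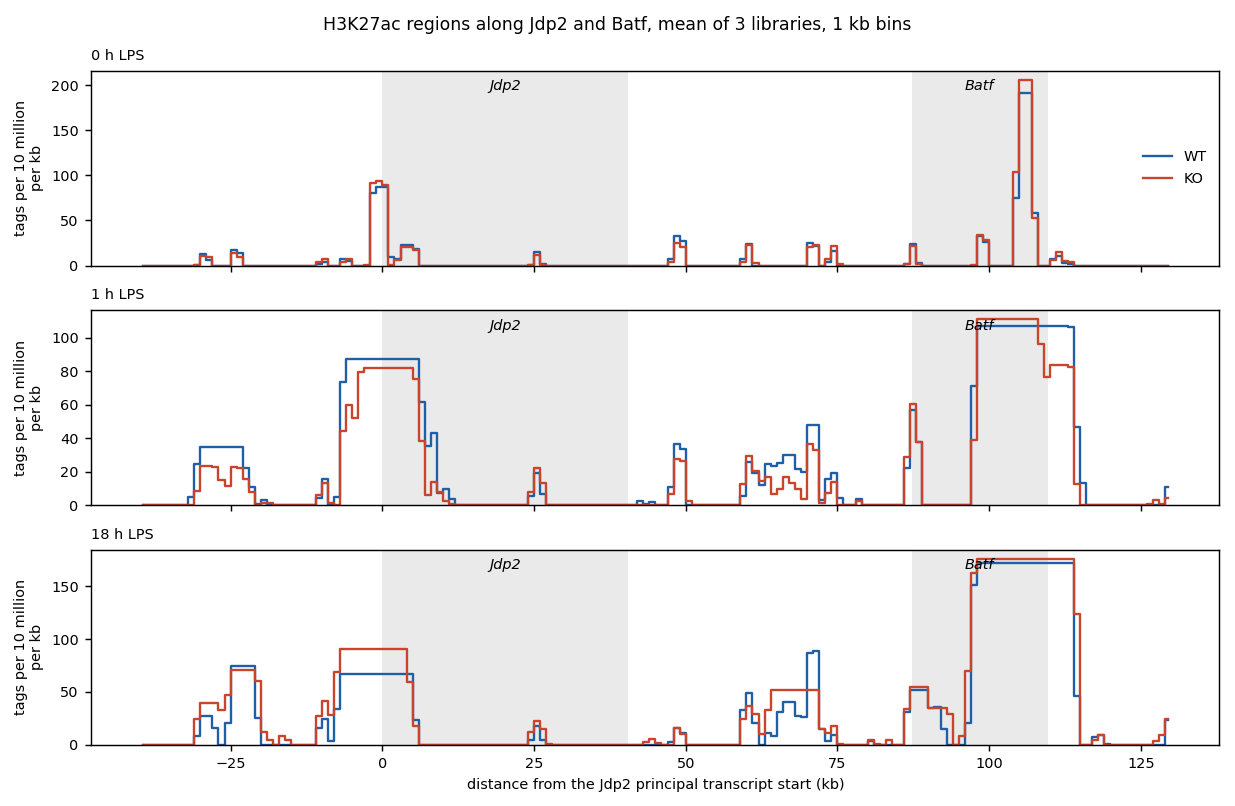
Mean H3K27ac tags per 10 M per kb (3 libraries, bins of 1 kb) against distance from the Jdp2 principal transcript start, at 0, 1 and 18 h of LPS, each row with its own axis from 0. The region upstream of Jdp2 gains signal with LPS, the blocks at the start of Jdp2 and over Batf widen, and the highest bin goes from 192 tags per kb in WT and 206 in Nur77-KO at 0 h (105 kb from the Jdp2 start) to 172 and 176 at 18 h (98 kb, within Batf).

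The upstream Jdp2 region is shown by its motif matches because it rose with LPS upstream of the gene with the widest Pol II range. It held 4 AP-1 sites (3.43 per 10 kb, against 2.44 over 65180 merged regions) and 2 NBREs (1.72 against 0.543 per 10 kb). It also held 16 matches to the interferon response motif (13.7 against 2.22 per 10 kb), the highest excess of the motifs searched. The AP-1 sites and NBREs, the sites of the AP-1 family and of Nur77, are printed below in 30 bases of the plus strand with the motif in capitals. A match is a description of the letters and not evidence of binding.
AP-1, chr12:85568334-85568363: gccaggtattgTGACTCAggcctgtaatct
AP-1, chr12:85569854-85569883: attcagaacgcTGACTCAgccacctgcatg
AP-1, chr12:85570366-85570395: aggctcacaagTGACTCAttctgacctaag
AP-1, chr12:85570875-85570904: tgatgagccatTGAGTCAaatacactgaag
NBRE, reverse strand, chr12:85573140-85573169: gccagaaaatcTGACCTTTgatcttccaga
NBRE, chr12:85578088-85578117: gctctgttaggAAAGGTCAtttatacagga
With all libraries the principal start of Batf2 was the 1 start with an H3K27ac genotype call, at 1 h. Without Nur77-KO replicate 1 those of Jdp2 and Batf3 also had a call. The region over the principal start of Batf2 (chr19:6162133-6166491) held 1 AP-1 site and 1 full CRE upstream of that start.
AP-1, chr19:6163402-6163431: ggcttgagagaTGACTCAgcgattaagagc
CRE, chr19:6162585-6162614: gttttttggggTGACGTCAtacccaagctt

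Near Batf the highest region begins within the gene and runs past its end (chr12:85695281-85714822). It had means of 598, 1847.5 and 2968 tags at 0, 1 and 18 h in WT and 661, 1668 and 3179 in Nur77-KO. Between Jdp2 and Batf, 28.1 to 14.9 kb before Batf (chr12:85658536-85671813), the means were 77.8, 335 and 477 in WT and 72.6, 223 and 558 in Nur77-KO. Pol II in that intergenic region at 18 h was 138, 166 and 175 tags in WT and 292, 309 and 289 in Nur77-KO, again with no overlap. Across Atf3 a region of the principal transcript (chr1:191165676-191205825) went from 3425 to 4256 and 9584 tags in WT and from 3868 to 3821 and 9046 in Nur77-KO. A long region upstream of Atf3 (chr1:191214936-191302626) fell at 1 h in both genotypes (-1.28 in WT and -1.11 in Nur77-KO). The highest region near Batf3 lies before the gene (chr1:191066876-191077904), with means of 709.6, 1213 and 1098 in WT and 763, 1017 and 810.2 in Nur77-KO.

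Between genotypes, 0 of 27 tested regions were called at 0 h, 0 of 27 at 1 h and 1 of 34 at 18 h, beside 1.85%, 14.1% and 3.73% of all regions; 5, 12 and 12 had an unadjusted p under 0.05 by limma, beside 15.5%, 47.1% and 26.7%. The 1 called region lies 16.3 to 15.2 kb before Jdp2 (chr12:85582689-85583859) and held 13.5, 14.1 and 10.3 tags in Nur77-KO at 18 h and was listed at 0 in every other library. It passed the filter on low values only through the group where it is high, so its call supports nothing. These values are near the lowest that a region could have, and the Nur77-KO H3K27ac libraries were deeper (23.6 to 55.4 M tags) than those of WT (13.5 to 31.2 M), whose part in this result was not tested. Without Nur77-KO replicate 1 at 1 and 18 h the counts were 0, 4 (all lower) and 2 (both higher, before Jdp2, and both at 0 in every WT library at 18 h, so that these calls support nothing either), beside 2.39%, 29.2% and 4.77% of all regions (9.97% lower at 1 h and 3.61% higher at 18 h). With the Nur77-KO at 1 h from replicate 1 alone they were 0, 1 (higher) and 2, beside 2.33%, 4.5% and 4.58%, so the 4 lower regions at 1 h rest on replicates 2 and 3: the upstream Jdp2 region, the Batf2 principal start, and 2 regions at Batf3. The Batf3 region 5.8 to 1.9 kb before the gene was listed at 0 in Nur77-KO replicates 2 and 3 at 1 h, and its call was lower without replicate 1 and higher with replicate 1 alone.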

How the data were processed

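Pol II and H3K27ac chromatin immunoprecipitation libraries and inputs of WT and Nur77-KO BMDMs were sequenced by the authors, aligned to mm10 with HISAT2 2.1.0, and turned into enriched regions with HOMER. Per the file headers, regions came from 500 bp windows that passed a Poisson test (p of 0.001, with the whole-genome tag average as its expectation) and were stitched below 1000 bp, without the input as a control. The deposited signal of a region is its tag number per 10 M (mega) tags. Here tags were shared out by overlap over each gene record with 500 bp either side (Pol II) and over 2500 bp either side of the record start (H3K27ac), and H3K27ac regions were merged over the 18 libraries (65180 regions). Log2 of tags plus 10 was fitted with limma 3.58.1 (R 4.3.3) on 6 group means with an intensity trend, and p-values were adjusted by Benjamini-Hochberg over all genes or regions tested, that is, those above 0 in at least 2 of 3 libraries of a compared group. Called means an adjusted p under 0.05. Fold changes on the log2(tags + 10) scale understate changes of low genes; folds in the text are ratios of group means. A region that was not called counts as 0, which affects low values most, and more so in shallower libraries. The script was tested on simulated data. Tables were made with Python 3.11.15 and pandas 2.3.3. The 5 genes and both gene lists were chosen with earlier results of these data known. Genes named outside the family are those lists and, per gene, the 3 with the highest Pearson r of log2 Pol II. Alternatives were other windows, pseudocounts, scalings, a replicate block and left-out libraries. The 27 genes with duplicate symbols were left out. The label of the Nur77-KO says only that it is a Cre genotype; how it was made comes from the study's methods.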

Additional observations from a re-analysis of the deposited data

Results flagged for a closer look

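The change in Pol II with LPS differed between the genotypes for 3 of the 5 genes (test of the difference in change, limma, adjusted over all genes). It was 1 of 5 at 1 h, beside 18.5% of all genes, and 3 of 5 at 18 h, beside 14.8%. For Jdp2 the 18 h change was larger in Nur77-KO by 1.39 (SE 0.12, adjusted p = 5.4e-07). For Atf3 the change was smaller in Nur77-KO, with values of -0.47 at 1 h (adjusted p = 0.00039) and -0.47 at 18 h (SE 0.07, adjusted p = 0.00032), both against the same 0 h libraries. For Batf3 the 18 h change differed by -0.73 (SE 0.24, adjusted p = 0.047), a call lost without any 1 of the 3 replicate numbers. Groups of 3 libraries were not tested for single libraries far from the rest.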

How the results depend on the processing

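Of the log2 changes of single genes recomputed under an alternative, 648 kept direction and side of the threshold, 84 fell short of it and 24 reversed; of the counts, 311 stayed within 1.5 times and 86 moved. Changes from 1 to 18 h entered the single-gene tally only for Pol II over Jdp2. The reversals of Atf3 and Batf with centring, given above, are outside it. The cause of each move was not tested unless given. Pol II in Nur77-KO against WT reversed for Jdp2 at 0 h to 0.33 in both start windows, for Atf3 at 18 h to 0.01 (0.0087 at the principal start, 0.0089 over the principal transcript), and for Batf3 at 18 h to 0.49 when regions were assigned by midpoint. The 18 h change of Batf3 then differed by 0.22, and by 0.059 without regions that overlap an input region. Pol II at 1 h reversed for Atf3 in Nur77-KO to -0.11 with quantile normalization, for Batf2 in WT to -0.19 with touching regions counted whole and -0.15 in the start window, and for Batf3 to 0.19 (centred), 0.71 (quantile) and 0.72 (without input regions) in WT and to 0.041, 0.48 and 1.06 in Nur77-KO. Batf3 at 18 h in WT became -0.18 by midpoint and -0.65 without input regions. For H3K27ac in Nur77-KO, Jdp2 became -0.19 at 1 h and -0.073 at 18 h within 1000 bp, Atf3 -0.12 and Batf -0.29 at 18 h by midpoint, and Batf3 1.26 at 1 h without input regions; Batf2 at 1 h in WT became 1.40 at the principal start.

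Counts of the 5 genes moved as follows, each with the share of all genes called in the same fit in brackets. In the Pol II start window the genotype counts were 1 without LPS (2.78%) and 2 at 18 h (4.95%), with 3 (61.2%) and 2 (53.6%) for 1 h LPS in WT and Nur77-KO. They were 2 (41.8%) for 18 h LPS in Nur77-KO, 2 (53.2%) for 18 h against 1 h in Nur77-KO and 1 (2.43%) for the difference in 18 h change. At the principal Pol II start they were 1 (23.0%) between genotypes at 1 h, 3 (60.5%) and 2 (53.0%) for 1 h LPS, 3 (63.3%) for 18 h against 1 h in WT, and 2 (3.79%) and 1 (2.62%) for the differences in change. By midpoint the Pol II counts were 1 (6.59%) at 0 h, 3 (57.6%) for 18 h LPS in WT and 3 (74.0%) for 18 h against 1 h in WT. The H3K27ac counts were 1 (16.4%) at 1 h, 2 (3.83%) at 18 h and 1 (50.2%) for 18 h LPS in Nur77-KO. With touching regions counted whole they were 1 (8.35%) for Pol II at 0 h, and for H3K27ac 1 (21.1%) at 1 h and 1 (4.43%) at 18 h. Centring gave 2 (19.9%) for the difference in 1 h change. H3K27ac within 1000 bp gave 1 (45.3%) for 18 h LPS and 1 (37.1%) for 18 h against 1 h in Nur77-KO, and the principal start 1 (18.7%) at 1 h. Without input regions, where fewer regions are left, Pol II gave 0 (3.6%) at 0 h and 0 (8.75%) at 18 h. It gave 2 (54.4%) and 0 (54.9%) for 1 h LPS, 0 (39.5%) and 0 (44.5%) for 18 h LPS, 3 (52.2%) and 1 (49.5%) for 18 h against 1 h and 0 (4.28%) for the difference in 18 h change. H3K27ac then gave 0 for every LPS comparison and for 18 h against 1 h (32.8% to 49.3% of all genes).

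Without Nur77-KO replicate 1 at 1 and 18 h the H3K27ac counts were 1, 3 and 1 between genotypes (10.3%, 59.8% and 19.0% of all genes). They were 5 for 18 h LPS (68.3%) and 5 for 18 h against 1 h (72.6%) in WT, and 2 (47.8%) and 2 (14.5%) for the differences in change. Regions numbered 4 (29.2% of all regions) and 2 (4.77%) at 1 and 18 h. With the Nur77-KO at 1 h from replicate 1 alone the genotype counts were 1 without LPS (9.78%) and 1 at 18 h (18.6%), 5 (68.0%) and 5 (72.2%) in WT, 2 (14.4%) for the difference in 18 h change, and 1 (4.5%) and 2 (4.58%) regions. Regions within 50 kb numbered 2, 8 and 3 between genotypes with no limit on the change (4.25%, 34.0% and 10.7% of all regions), 20 (67.3%) for 1 h LPS in WT, and 20 (64.0%) and 24 (66.7%) for 18 h LPS in WT and Nur77-KO. Pseudocount 1 gave 1 (3.05%) at 0 h and 3 (7.13%) at 18 h. Leaving out each replicate number gave, for Pol II between genotypes, 1 to 2 at 0 h (3.75% to 4.28% of all genes), 1 to 2 at 1 h (26.0% to 37.4%) and 1 to 4 at 18 h (11.2% to 14.2%). For H3K27ac between genotypes it gave 0 to 3 at 1 h (0.253% to 55.6%) and 0 to 1 at 18 h (0.433% to 12.2%). For LPS it gave 1 to 4 at 1 h in Nur77-KO (26.1% to 58.0%), 2 to 4 at 1 h in WT (35.2% to 64.7%) and 1 to 5 at 18 h in WT (30.2% to 60.9%). For 18 h against 1 h it gave 1 to 4 in WT (39.5% to 66.6%) and 0 to 2 in Nur77-KO (24.8% to 65.9%), and for the differences in change 0 to 2 (0 to 40.3%) and 0 to 1 (0.00839% to 4.99%). Regions were 0 to 2, 0 to 4 and 1 to 2 between genotypes (1.38% to 3.13%, 2.25% to 30.9% and 1.97% to 4.76% of all regions).

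Replicate numbers did not pair the libraries: deviations of same-numbered libraries correlated at -0.077 to 0.108 for Pol II and -0.42 to 0.080 for H3K27ac. With the replicate block Jdp2 at 18 h stayed at 1.05 (limma adjusted p = 2.8e-07), the counts stayed within 1.5 times, and 1 single-gene call was lost (H3K27ac, Batf2 at 1 h in WT, -0.21, adjusted p = 0.063). Depth limits low regions most, since a region below about 5 tags in 500 bp is listed at 0.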
